A study of Mus musculus with 12 samples.

Results

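The untreated state of GC-2, a mouse cell line, was described from the 3 RNA-seq libraries of cells kept for 24 h in normoxia with DMSO, the solvent, chosen by these labels out of 12 libraries in the study. The study crossed DMSO or MLN4924, an inhibitor of neddylation (the attachment of the small protein NEDD8 to other proteins), with normoxia or hypoxia. The 9 libraries with MLN4924 or hypoxia were not used for any level below, and no treatment was compared. The labels give the genotype as WT and the source of every library as type B spermatogonia. The cell line field reads GC-2 on all 3 libraries, while the cell type field carries a running number after GC that differs from library to library. The libraries are called biological replicates in the series text, but nothing else says how the cultures were separated, so the spread given here may be partly technical.

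GC-2 is known from the literature as a line made by introducing the large T antigen of SV40 and a temperature-sensitive p53 into mouse spermatocytes. Spermatogonia are the mitotic germ cells at the edge of the seminiferous tubule, and type B cells are the last of them before meiosis. In the testis these cells sit among Sertoli cells, which nurse them, peritubular myoid cells, which surround the tubule, and Leydig cells, which make testosterone. Germ cells entering meiosis switch on genes for the synaptonemal complex and for recombination, and many of their housekeeping enzymes are later replaced by testis copies encoded by separate genes.

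Values are FPKM, sequenced fragments scaled by transcript length and by the size of the library, so that levels of different genes can be set side by side. A level is given either for replicates 1, 2 and 3 in that order or as the mean ± SD of the 3 libraries (n = 3). A gene is called present at 1 FPKM or more in each of the 3 libraries. A gene is called below that level where all 3 libraries are under 1 FPKM, and it falls between where the libraries are on both sides. The comparisons below are between genes within the same libraries and carry no test. One gene is said to be above another only where its lowest library lies above the highest library of the other.

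Column totals were 553966, 534946 and 549381 FPKM, and 11611 to 11644 genes per library reached 1 FPKM. From the steps between low FPKM values the libraries were estimated to hold 18300000 to 18600000 fragments each. Of 24770 gene symbols with a row, 10980 were present in all 3 libraries, 12481 were below 1 FPKM in all 3 and 1309 fell between. Present genes thus made up 44.3% of the rows, and 72 genes reached 1000 FPKM in every library. The rows include 9389 with gene model or pseudogene names (Gm, -ps or Rik), of which 794 were present. The share among the other rows is therefore higher, and a list of named genes can exceed 44.3% without being set apart. The lists below were chosen with earlier results of these data known, so their counts are descriptions. Across the 10980 present genes, Spearman's rho between pairs of libraries was 0.985 to 0.987, and the rows under that level were left out. These correlations are over genes, which are not independent replicates.

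Outside the ribosomal proteins, the most abundant nuclear genes with a name served protein synthesis, glycolysis, cell surface binding, iron storage and protein folding, and Trp53 was among them. Eef1a1, the factor that brings charged tRNA to the ribosome, stood at 3895, 3871 and 3901 FPKM and hardly varied. Lgals1 (galectin-1), a secreted lectin that binds cell surface sugars, was at 3400.2, 3356 and 3395 FPKM. Gapdh, the glycolytic enzyme, followed at 3153, 3118 and 3135 FPKM. The libraries of these 3 genes do not overlap, so the order Eef1a1, Lgals1, Gapdh held in each replicate. Trp53, the gene of the tumour suppressor p53, stood at 2118, 2077 and 2056 FPKM, place 19 of all rows. The Trp53 row does not separate transcripts of the cell's own gene from those of an introduced mouse p53. Ptma (prothymosin alpha) was at 1928 ± 47.4 FPKM, S100a11, a calcium-binding protein, at 1892 ± 16.8 FPKM, and Ftl1, the ferritin light chain that stores iron, at 1857 ± 15.3 FPKM. The last of the 9 such genes among the 30 highest rows were B2m, the invariant chain of MHC class I, at 1772 ± 57.4 FPKM and Calr (calreticulin), a chaperone of the endoplasmic reticulum, at 1765 ± 22.4 FPKM.

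**Figure D1:**
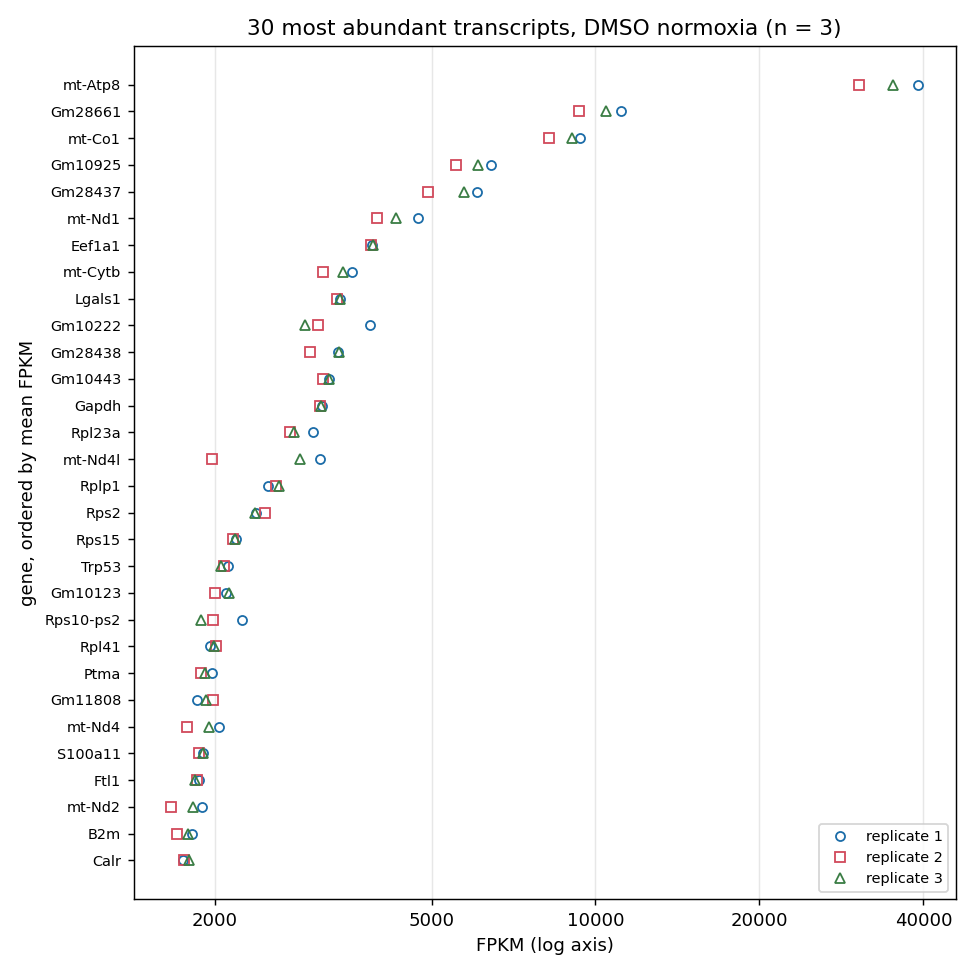
FPKM (horizontal, log axis) of the 30 genes with the highest mean, ordered by that mean, with 1 symbol for each of the 3 DMSO normoxia libraries. mt-Atp8 lies between 30508 and 39122 FPKM, above every other row, and replicate 2 is the lowest library for mt-Atp8, mt-Co1, mt-Nd1 and mt-Cytb, while Eef1a1, Lgals1 and Gapdh show almost no scatter.

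Of the 30 highest rows, 7 were mitochondrially encoded, 5 were cytosolic ribosomal proteins, 9 carried gene model or pseudogene names and 9 were other genes. The first row was mt-Atp8, a short subunit gene of the mitochondrial ATP synthase, at 39122, 30508 and 35105 FPKM. Its annotated transcript of 204 nt is shorter than the offset of 285 to 295 nt that the low values gave for these libraries, so its length correction is uncertain. mt-Atp6, which is transcribed on the same RNA, was listed at 538, 408 and 458 FPKM. mt-Co1, the catalytic subunit of cytochrome c oxidase, was at 9369.5, 8214 and 9045 FPKM. mt-Nd1, a subunit of complex I, was at 4727, 3973 and 4312 FPKM, and mt-Cytb, of complex III, was at 3573, 3159 and 3437 FPKM. In mt-Atp8, mt-Co1, mt-Nd1 and mt-Cytb, replicate 1 was the highest library and replicate 2 the lowest.

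All 9 rows with gene model or pseudogene names among the first 30 were near-identical to another gene: at least 95% of the bases matched over at least 80% of the transcript in the GENCODE M21 transcripts. Within the first 100 rows this held for 15 of 16. Reads that lie within identical stretches of such a pair cannot be assigned to 1 of the members from sequence alone. The 5 pairs with mitochondrial genes are shown because the sequences decide how these rows can be read. Over 681 nt, the annotated copy Gm28661 did not differ from mt-Co2 at any base, and their first 81 bases are given here from the 5′ end.

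mt-Co2: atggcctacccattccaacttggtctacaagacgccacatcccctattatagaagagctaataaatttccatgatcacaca

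Gm28661: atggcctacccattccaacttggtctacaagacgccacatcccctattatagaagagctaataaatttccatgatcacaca

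Gm28438 differed from mt-Nd3 at 1 of 345 bases. The substitution is T3C, with the base of mt-Nd3 first and positions counted from 1 at the first base of its annotated transcript. The differing base is in capitals in the first 43 bases of each.

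mt-Nd3: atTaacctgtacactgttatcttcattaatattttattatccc

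Gm28438: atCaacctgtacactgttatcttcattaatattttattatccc

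Gm10925 matched mt-Atp6 over 678 nt, Gm28437 matched mt-Co3 over 783 nt and Gm10222 matched mt-Nd4l over 294 nt, each without a mismatch. The mitochondrial member was the lower row in 5 of 5 pairs by mean FPKM. mt-Co2, the second subunit of cytochrome c oxidase, was listed at 195, 17.6 and 34.9 FPKM, against 11149.7, 9339 and 10433 for Gm28661. mt-Co3, the third subunit, was listed at 0.03, 471 and 156 FPKM, against 6071, 4926 and 5738 for Gm28437. For both genes the libraries disagreed widely on the mitochondrial row and far less on the copy.

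When each mitochondrial row was added to its copy, mt-Co2 became 11345, 9356 and 10468 FPKM, and its coefficient of variation (the SD as a percentage of the mean) went from 119% to 9.59%. For mt-Co3 the sum was 6071, 5397 and 5894 FPKM, and the coefficient went from 115% to 6.04%. For mt-Nd3 it went from 37.3% to 9.55%, for mt-Atp6 from 14.01% to 7.86% and for mt-Nd4l from 22.5% to 16.1%. A sum of a small and a much larger row varies about as the larger row does, so these falls are no test of shared reads. The copies alone had coefficients of 8.85% (Gm28661), 10.56% (Gm28437), 6.76% (Gm28438), 7.41% (Gm10925) and 14.97% (Gm10222). Only for Gm28437 was the sum less variable than the copy. Without the copies, the 13 mitochondrially encoded protein-coding genes held 12.3%, 10.3% and 11.4% of the total FPKM in replicates 1, 2 and 3. More than 50% of this came from mt-Atp8, whose length correction is uncertain, at 7.06%, 5.70% and 6.39%, and the other 12 genes held 4.95% ± 0.338. The 5 nuclear copies held a further 4.84% to 5.57%, so that both together held 16.5% ± 1.38. With 297 and 294 nt, mt-Nd4l and Gm10222 lie near the offset given above, so their parts of these shares are uncertain too.

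Nuclear genes had identical copies as well. Gm10443 (3219 ± 46.6 FPKM) was identical to Rps28 over 210 nt, Gm10123 (2076 ± 63.2 FPKM) to Ppia over 490 nt, and Gm10275 to Rpl12 over 634 nt. At 210 nt, Gm10443 is shorter than the offset given above, so its level has the same weakness as that of mt-Atp8. Rpl12, a ribosomal protein of the large subunit, was listed at 14.9, 15.7 and 18.1 FPKM, while Gm10275 was at 1469 ± 39.996 FPKM. Rpl12 was the lowest of the 77 cytosolic ribosomal protein rows. The highest was Rpl23a at 2859 ± 147 FPKM, and all 77 were present. The level of Rpl12 alone leaves out any of its reads that were given to the copy. In total they held 10.99% ± 0.261 of the FPKM.

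Smaller shares went to the other abundant classes. The 18 glycolytic genes, which split glucose to pyruvate and lactate, held 2.11% ± 0.0513 of the total FPKM and were all present. The 27 genes of the actin cytoskeleton held 1.64% ± 0.0461, the 23 chaperones 1.53% ± 0.0237, the 6 elongation factors 0.946% ± 0.0189, and the 4 ferritin and metallothionein genes 0.751% ± 0.0142. The 100 highest rows held 39.3%, 37.2% and 38.3% of all FPKM in replicates 1, 2 and 3. FPKM gives short transcripts more weight than their share of the fragments. A rough share of fragments was taken as FPKM times the median annotated length, for genes with such a length. The offset given above was not subtracted, so short transcripts may still be weighted too high. On this estimate the 100 highest genes held 26.9%, mt-Co1 ranked first with 2.46% ± 0.142 and Trp53 ranked 8 with 0.671% ± 0.0104. The 2 rankings had 19 of the first 30 genes and 75 of the first 100 in common.

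Most enzymes and structural proteins exist as families whose members differ between tissues, and in the untreated cells 1 member usually stood above the others. Of 87 families, 84 had a member that was present along with at least 1 other measured member. In 80 of the 84, 1 member stood above all others in every library, and in 61 a member held at least 50% of the family's FPKM in every library. The count of 80 became 60 where the leader had to be at least 1.5 times the next member, so some leads were small. Where only 2 members were measured, a leading member holds at least 50% by definition. This applies to some of the 61, such as ferritin, where Ftl1 was only 1.17 to 1.26 times Fth1. No member stood above the rest in 4 families, among them phosphofructokinase, cystatin and the TEAD factors. For the cystatins, inhibitors of cathepsins, Cst3 was at 399, 398 and 391 and Cstb at 388, 392 and 369.6 FPKM. For the TEAD factors, through which YAP acts on genes, Tead2 was at 17.6, 17.3 and 15.4 and Tead3 at 16.6, 16.04 and 17.03 FPKM. In both of these pairs the libraries overlap.

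In glycolysis, 1 isoenzyme held nearly all of the transcripts at several steps. Hexokinase, which traps glucose in the cell, was mainly Hk1 at 58.01, 59.1 and 59.9 FPKM. Hk2 was at 17.1, 17.2 and 16.6 FPKM, so Hk1 held 77.6% ± 0.577 of the family. Hk1 is the form of most tissues and Hk2 the form known from muscle, fat and tumours. Aldoa, the aldolase of muscle and many cultured cells, held 99.8% ± 0.0292 of its family at 897 ± 9.75 FPKM. Ldha, the subunit of lactate dehydrogenase known for making lactate, was at 1077, 1098 and 1105 FPKM. Ldhb, the heart subunit, was at 3.61, 2.61 and 3.38 FPKM. Ldha thus held 99.7% ± 0.051 of the lactate dehydrogenase transcripts, and Ldhc, the testis subunit, was listed at 0 in all 3 libraries. Enolase was 95.7% ± 0.22 Eno1 (1138 ± 18.7 FPKM), with the muscle form Eno3 at 43.8 ± 0.386 FPKM.

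Phosphofructokinase, the committed step of glycolysis, had no single leading member. Pfkl, the liver type, was at 33.3, 46.03 and 38.4 FPKM and Pfkm, the muscle type, at 30.1, 32.4 and 35.5 FPKM, so that their libraries overlap. Pfkp was below both at 23.8, 22.6 and 24.7 FPKM. Among the kinases that switch off pyruvate dehydrogenase, Pdk3 (35.8 ± 0.762 FPKM) stood above Pdk1 (14.2 ± 0.581 FPKM). Of the glucose transporters, Slc2a1 (GLUT1) stood highest at 63.4 ± 1.58 FPKM, 86.8% ± 1.21 of its family. Slc16a3 (MCT4), a lactate exporter, was at 276, 256 and 277 FPKM, and Slc16a1 (MCT1) at 25.6, 23.97 and 22.5 FPKM. Car9, a carbonic anhydrase of the cell surface that is known as a target of the hypoxia factor HIF1, was the highest of the 8 measured members in these normoxic cultures, at 46.1, 46.97 and 50.95 FPKM.

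In mitochondria, Cox4i1 was at 528 ± 4.64 FPKM while Cox4i2, the lung form, was listed at 0 throughout. Slc25a5 led the exchangers of ADP and ATP at 327 ± 7.54 FPKM, with Slc25a4 at 157 ± 5.47 FPKM. Mdh2, the mitochondrial malate dehydrogenase, was at 212 ± 5.45 FPKM and the cytosolic Mdh1 at 104 ± 4.76 FPKM. Each of these orders held in every library.

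Among enzymes that remove oxidants, Sod1, the cytosolic superoxide dismutase, was at 794, 856 and 879 FPKM and held 89.3% ± 0.731 of its family. The mitochondrial Sod2 was at 52.9 ± 1.38 FPKM and the secreted Sod3 at 47.7 ± 1.68 FPKM. Gpx4, which reduces lipid peroxides and also has a structural role in sperm, was the highest glutathione peroxidase at 449 ± 8.06 FPKM, above Gpx1 at 159 ± 6.44 FPKM. Prdx2 led the peroxiredoxins at 577 ± 5.15 FPKM, and Gstp1 led the 24 measured glutathione S-transferases at 470.05 ± 13.6 FPKM. The metallothioneins, small metal-binding proteins, were Mt1 at 448 ± 23.5 FPKM and Mt2 at 268 ± 14.2 FPKM.

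**Figure D2:**
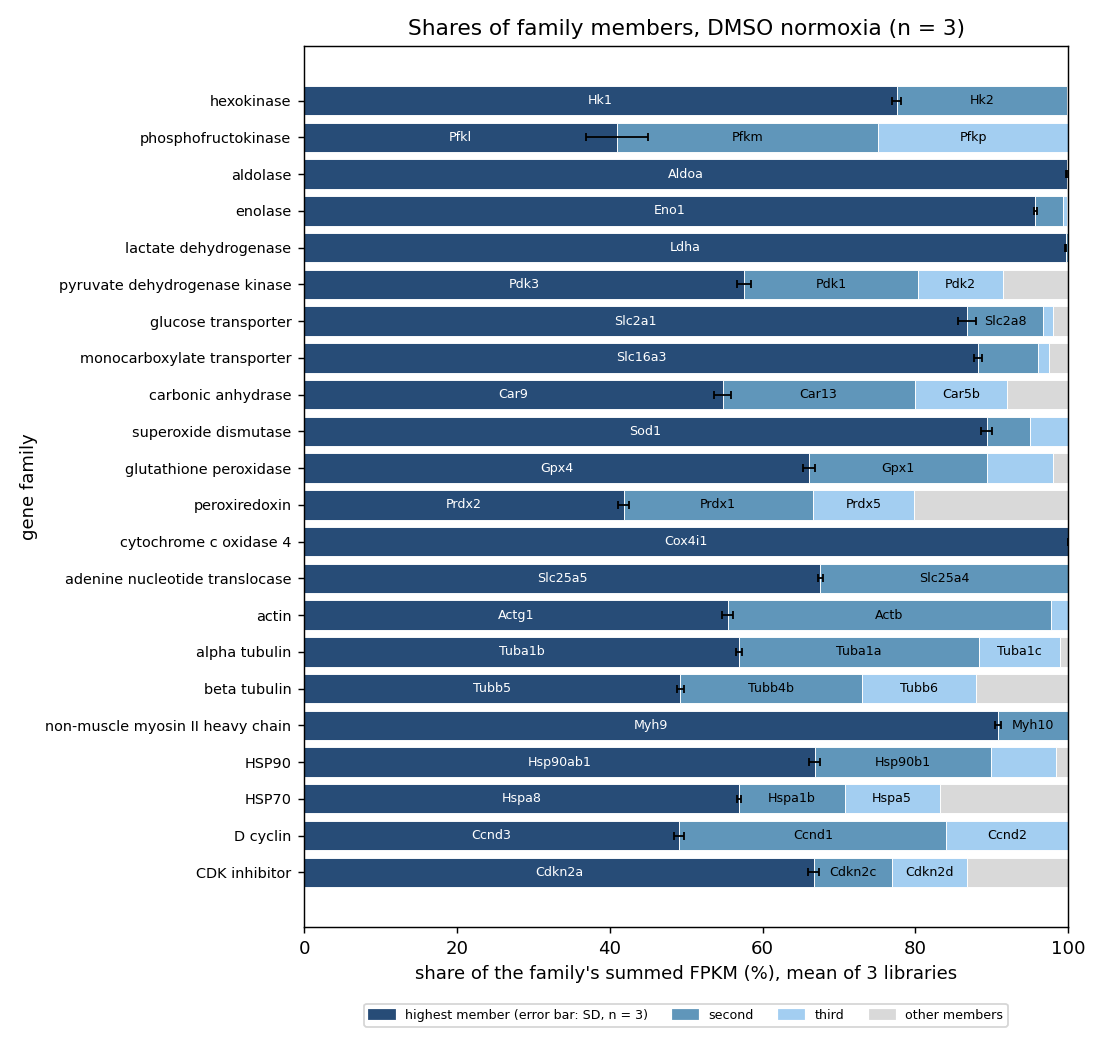
Share of each family's summed FPKM (horizontal, %, mean of 3 DMSO normoxia libraries) held by its 3 highest members and by all others, for selected families; the error bar is the SD of the first member's share. Ldha, Aldoa and Cox4i1 take up nearly the whole bar, while Pfkl, Pfkm and Pfkp divide theirs into 40.9%, 34.2% and 24.9%.

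The cytoskeleton was of the type that many non-muscle cells share. Actg1 (gamma actin) was at 1292, 1347 and 1290.1 FPKM and Actb (beta actin) at 1009, 1044 and 948 FPKM. Actg1 was thus above Actb in these libraries, and Acta2, the smooth muscle form, was at 52.5 ± 2.3 FPKM. Tuba1b led the alpha tubulins at 1162 ± 19.3 FPKM and Tubb5 the beta tubulins at 561 ± 9.42 FPKM. Myh9, the heavy chain of non-muscle myosin IIA, held 90.8% ± 0.36 of its family. Vim (vimentin), the intermediate filament of mesenchymal cells, was at 739, 758 and 730.4 FPKM. Tmsb10 held 87.3% ± 0.727 of the beta thymosins, which bind actin monomers. Tubulins and actins are close in sequence, so the division of reads among their members depends on the authors' counting.

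For chaperones, Hspa8, the constitutive HSP70, was at 1318 ± 22.6 FPKM and Hsp90ab1, the constitutive HSP90, at 1162 ± 17.7 FPKM. The heat-inducible Hspa1b was listed at 319 ± 2.88 FPKM and its near-identical neighbour Hspa1a at 5.36 ± 0.375 FPKM, a division that sequence alone may not support. Cryab, a small heat shock protein, was at 152 ± 4.83 FPKM. The S100 proteins, which bind calcium, had several abundant members, with S100a11 at 1892 ± 16.8, S100a4 at 1761 ± 63.4 and S100a6 at 1629 ± 53.7 FPKM. Annexins were led by Anxa2 (820.2 ± 7.42 FPKM), cathepsins by Ctsd (423 ± 8.29 FPKM) and tetraspanins by Cd63 (541 ± 16.5 FPKM).

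In the cell cycle families, Ccnd3 (74.8 ± 1.18 FPKM) stood above Ccnd1 (53.3 ± 0.738 FPKM) and Ccnd2 (24.3 ± 0.286 FPKM). These D cyclins activate Cdk4 and Cdk6, of which Cdk4 was at 105 ± 2.99 FPKM and Cdk6 at 1.55 ± 0.937 FPKM. Cdkn2a, the locus of the inhibitors p16 and p19ARF, was at 244, 251 and 256 FPKM and held 66.7% ± 0.737 of the inhibitor family. Cdkn1a (p21), a target of p53, was at 16.7, 18.3 and 15.9 FPKM. Cdkn2a thus stood above Cdkn1a in every library. Dnmt1, the maintenance DNA methyltransferase, held 96.1% ± 0.795 of its family. All 18 genes of the proliferation list were present, among them Pcna at 325 ± 12.4, Mcm2 at 128 ± 1.47, Top2a at 99.97 ± 3.67 and Mki67 at 63.2 ± 5.07 FPKM. By comparison, 44.3% of all rows were present.

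At the cell surface, Cdh2 (N-cadherin) was at 27.8, 33.01 and 27.2 FPKM and Cdh1 (E-cadherin) at 0.09, 0.12 and 0.14 FPKM. Gja1 (connexin 43), the main gap junction protein between Sertoli cells and of many mesenchymal cells, was at 41.7 ± 1.46 FPKM. Claudins, the strand proteins of tight junctions, were low, with Cldn12 at 6.25 ± 1.29 FPKM as the highest of 9 measured members. Aqp5, a water channel known from glands and lung, held 97.2% ± 1.1 of the aquaporin transcripts at 31.2, 26.8 and 28.6 FPKM.

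Testis copies of housekeeping genes were mostly below 1 FPKM. Of 32 pairs of a widely expressed gene and its testis or germ cell counterpart, 15 had both members measured. The other 17 counterparts had no row and were not analysed here, and whether they were undetected cannot be told. The widely expressed gene was the higher in every library in 14 of the 15 pairs, and in all 14 by at least 10 times on the scale of FPKM + 1. The counterpart was listed at 0 in all 3 libraries in 6 pairs, among them those of Ldhc, H1f6, Rpl39l, D1Pas1 and Tuba3a. The partners of these genes, Ldha, H1f0, Rpl39, Ddx3x and Tuba1b, lay between 128 and 1162 FPKM. At the estimated depth, 3 fragments of Ldhc would have given about 0.279 FPKM, the limit that a value of 0 leaves.

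Of the 15 measured counterparts, 2 were present, beside 44.3% of all rows. Hspa2, the HSP70 of spermatocytes, was at 4.29, 4.79 and 4.59 FPKM, against 1294, 1322 and 1339 for Hspa8. Tbpl1, the TBP-like factor that spermatids need, was at 14.9, 15.7 and 15.4 FPKM, and Tbp, the general factor, at 16.4, 14.7 and 14.7 FPKM. The libraries of Tbp and Tbpl1 overlap, so neither stood above the other. Hspa1l (0.85, 1.03 and 0.71 FPKM) and Ppp3cc (1.33, 0.6 and 0.79 FPKM) fell on both sides of 1 FPKM.

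**Figure D3:**
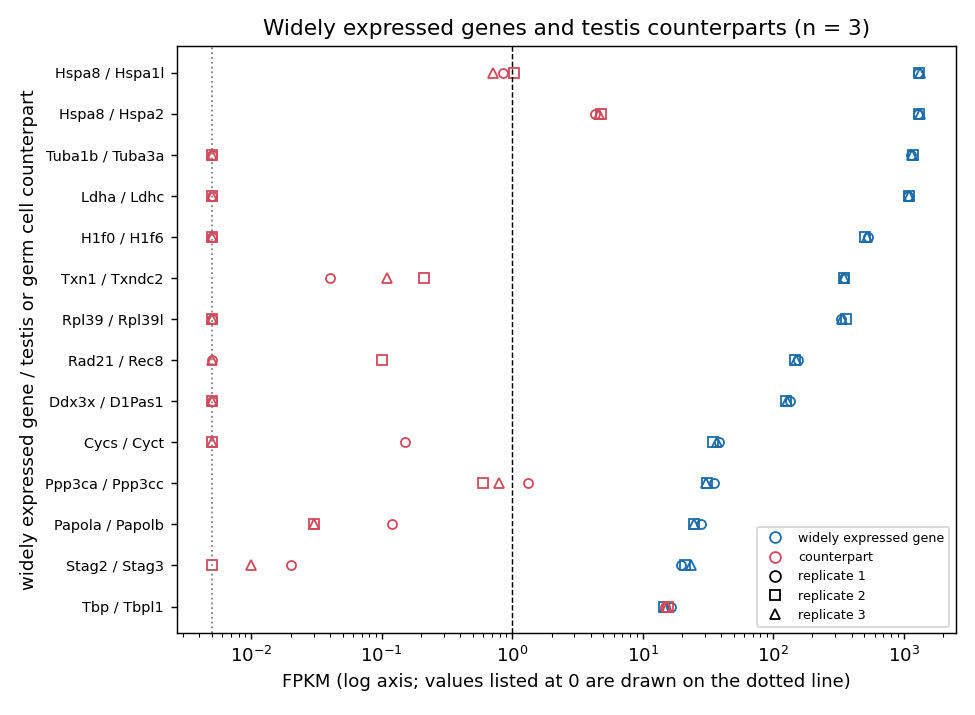
FPKM (horizontal, log axis) of widely expressed genes (blue) and their testis or germ cell counterparts (red) in 14 of the 15 pairs, with 1 symbol shape for each of the 3 DMSO normoxia libraries; the dashed line is 1 FPKM and the dotted line holds values listed at 0. Red symbols lie at or below the dashed line in all pairs drawn but those of Hspa2 and Tbpl1, with 1 library each of Hspa1l and Ppp3cc above it.

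Germ cell markers were mostly below 1 FPKM. The 5 lists run from undifferentiated spermatogonia to sperm, so most of their members belong to other stages than the labelled one. Of 106 markers in these lists, 55 were measured and 51 had no row among the 24770, so they were not analysed here. Every row was above 0 in at least 1 of the 12 libraries. The filters were not given, so whether genes without a row were undetected cannot be told. The counts cover genes with a row only. Of the 55, 11 were present, 42 were below 1 FPKM in every library and 8 of those 42 were listed at 0 throughout. For comparison, 44.3% of all rows were present. Of the 5 measured markers of differentiating spermatogonia, the list closest to the label, Ccnd2 was present at 24.1, 24.6 and 24.2 FPKM, 3 were below 1 FPKM, and Prdm9, which places meiotic recombination, lay on both sides of it at 1.28, 0 and 1.16 FPKM. Ccnd2 is a D cyclin that other dividing cells also use. Ddx4, the germ cell RNA helicase, was listed at 0.04, 0.02 and 0 FPKM. Kit, the receptor that marks differentiating spermatogonia, was at 0.02, 0 and 0 FPKM. Sohlh2, a transcription factor of the same cells, was at 0.16, 0.13 and 0.08 FPKM. Ddx4, Kit and Sohlh2 were thus close to 0, and Stra8, Dmrt1 and Dmrtb1, the other defining markers of differentiating spermatogonia, were not analysed here.

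Of the defining markers of undifferentiated spermatogonia, Gfra1 and Etv5 were present. Gfra1, the receptor through which GDNF acts, was at 6.23, 5.7 and 4.82 FPKM, and Etv5, a transcription factor induced by GDNF, was at 7.08, 6.72 and 7.28 FPKM. Ret, the kinase that signals with Gfra1, was under 1 FPKM at 0.83, 0.84 and 0.82. Id4 was at 0.15, 0.03 and 0.09 FPKM, and Zbtb16 and Nanos2 were not analysed here. Adgra3 (37.2 ± 0.929 FPKM) and Foxo1 (4.24 ± 0.0404 FPKM) completed the present members of that list.

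The highest germ cell marker was Syce2, a central element protein of the synaptonemal complex, at 136, 149 and 149.6 FPKM. The other measured genes of that complex were near 0: Sycp1, of the transverse filament, at 0.02, 0 and 0, Sycp3, of the axial element, at 0.21, 0.35 and 0.13, and Tex12, the known partner of Syce2, at 0 in all 3. Syce2 was thus alone among these 4 in being present. In the GENCODE M21 annotation the Syce2 gene body overlaps Gcdh on the opposite strand without a shared exon. Gcdh, a mitochondrial enzyme of lysine breakdown, was at 38.5, 34.04 and 35.9 FPKM, and the strandedness of the libraries was not given.

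Other present meiotic markers were Mybl1 (4.75 ± 0.381 FPKM), a transcription factor of the pachytene stage, and Ythdc2 (4.01 ± 0.21 FPKM), an RNA helicase needed for meiotic entry. The cohesin subunits Rec8 and Stag3 were at most 0.1 FPKM in any library. Piwil4, which binds piRNAs in fetal germ cells, was at 2.8 ± 0.142 FPKM and Piwil2 at 0.0267 ± 0.0252 FPKM. Among 9 measured spermatid markers only Odf2, which is also a centrosome protein of other cells, was present, at 5.92 ± 0.878 FPKM. Acrv1, an acrosome protein, was at 0.0233 ± 0.0404 FPKM. Prm1, Prm2, Tnp1 and Akap4 were not analysed here. The label was thus borne out by few of the measured germ cell markers, and with 5 measured genes the list of the labelled stage is short. The literature origin given above, spermatocytes, differs from the label. In the meiosis and spermatocyte list, 4 of 18 measured markers were present, beside 44.3% of all rows. No other cell type name is given here.

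Markers of connective tissue cells were mostly present. In the fibroblast and mesenchymal list, 25 of 28 measured genes were present, beside 44.3% of all rows. That list was chosen with earlier results of these data known, so its count is a description only. Col1a1, a chain of type I collagen, was at 612, 615 and 625 FPKM. Its partner chain Col1a2 was at 544, 533 and 546 FPKM and Sparc, a matrix glycoprotein of bone and connective tissue, at 660.1, 554 and 576 FPKM. Fn1 (fibronectin) was at 197 ± 5.39 FPKM, and S100a4, also called fibroblast-specific protein, at 1761 ± 63.4 FPKM. The transcription factors Snai1 (18.9 ± 1.18 FPKM), Prrx1 (17.1 ± 0.769 FPKM), Snai2 (13.6 ± 1.14 FPKM) and Twist1 (11.03 ± 1.19 FPKM), known from mesenchymal cells, were present as well. The exceptions were Thy1 at 0.0133 ± 0.0231 FPKM, Dcn (decorin) at 0.387 ± 0.227 FPKM and Postn (periostin), which lay on both sides of 1 FPKM. Of 21 collagen genes, 16 were present, and Col3a1, abundant in most fibroblasts, was far below type I at 10.5 ± 0.501 FPKM.

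Markers of the testicular somatic cells were mixed. Nr5a1 (SF1), the transcription factor of steroidogenic and Sertoli cells, was at 25.6, 23.8 and 25.5 FPKM. Star, which carries cholesterol into mitochondria, was at 11.2, 10.8 and 10.1 FPKM. Cyp11a1, which takes the first step from cholesterol, was at 0.88, 0.87 and 1.22 FPKM, and Cyp17a1 and Hsd3b1, which take later steps, were listed at 0 in all libraries. Of 9 measured Leydig markers, 6 were present, beside 44.3% of all rows, a share that gene models lower. The 2 enzymes at 0, however, are among those that define the cell type. Fdx1 (122 ± 1.24 FPKM) and Fdxr (31.99 ± 1.76 FPKM), which feed electrons to mitochondrial cytochromes P450, were the highest of that list.

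Of 14 Sertoli markers, 7 were present, beside 44.3% of all rows, a share that gene models lower. This count does not set the Sertoli markers apart from other genes. Gata4 was at 7.47, 6.1 and 9 FPKM and Sox9, the factor that directs Sertoli fate, at 6.46, 6.02 and 5.89 FPKM. Kitl, the ligand of Kit, was at 33.3, 33.7 and 32.8 FPKM. Wt1 (0.463 ± 0.0651 FPKM), Amh (0.153 ± 0.1002 FPKM) and Fshr (0.01 ± 0.0173 FPKM), also defining, were below 1 FPKM. Of 14 peritubular and smooth muscle markers, 9 were present, with Tpm2 at 81.3 ± 5.07 and Acta2 at 52.5 ± 2.3 FPKM but Myh11 at 0.01 ± 0, Cnn1 at 0.427 ± 0.355 and Des at 0.6 ± 0.148 FPKM.

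Of 17 measured gonadal and urogenital transcription factors, 9 were present, near the 44.3% of all rows. Besides Nr5a1, Gata4 and Sox9 the present factors were Nr2f2 (17.4 ± 0.894 FPKM), Gata6 (5.86 ± 0.205 FPKM), Nr2f1 (5.23 ± 1.74 FPKM), Osr1 (4.97 ± 0.195 FPKM), Tbx18 (2.7 ± 0.115 FPKM) and Emx2 (2.69 ± 0.562 FPKM). Foxl2, the factor of ovarian granulosa cells, was listed at 0.

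Epithelial, endothelial and blood cell markers were largely below 1 FPKM, where 44.3% of all rows were present. Of 15 epithelial markers 3 were present, Krt19 (4.17 ± 0.338 FPKM), Esrp2 (3.51 ± 0.0862 FPKM) and Muc1 (1.63 ± 0.237 FPKM), with Krt18 at 0 and Krt8 at 0.0533 ± 0.0503 FPKM. Of 9 endothelial markers none was present, with Pecam1 at 0.01 ± 0.0173 and Cdh5 at 0.123 ± 0.0802 FPKM. Of 10 leukocyte markers, Cd14 (9.99 ± 1.42 FPKM) and Cd68 (1.71 ± 0.453 FPKM) were present and Csf1r was at 0.0933 ± 0.095 FPKM. Pou5f1 and Nanog, which keep stem cells pluripotent, were listed at 0, while Klf4 was at 18.6 ± 0.292 FPKM. None of 8 muscle markers was present. In the neural list, 4 of 9 were present, near the share of all rows, with Map2 at 21.97 ± 3.63 and Nes (nestin) at 17.4 ± 0.587 FPKM. In bulk RNA a low level in every cell and a high level in few cells cannot be told apart.

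**Figure D4:**
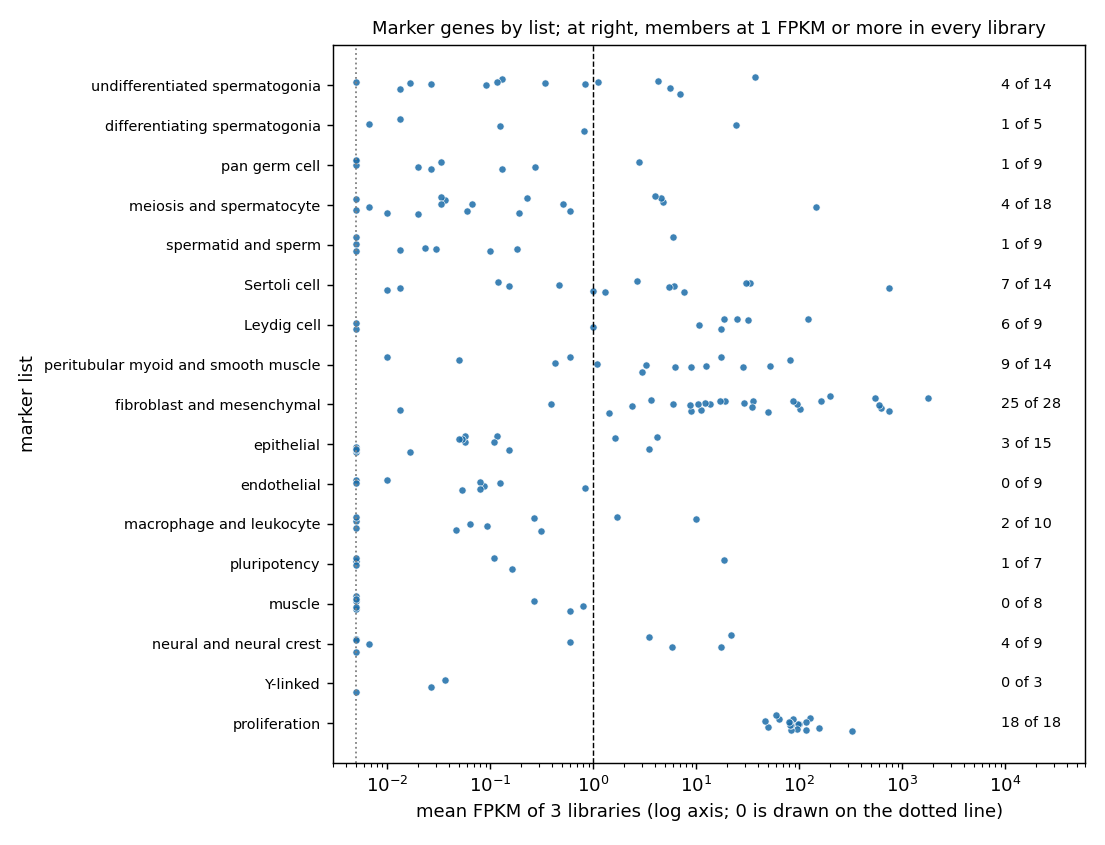
Mean FPKM (horizontal, log axis) of each measured marker gene, 1 dot per gene, in 17 lists; the dashed line is 1 FPKM, the dotted line holds genes at 0, and the counts at right give members at 1 FPKM or more in every library. The fibroblast list has 25 of 28 and the proliferation list 18 of 18 members present, against 1 of 5 for differentiating spermatogonia and 1 of 9 for germ cells in general.

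Genes of the sex chromosomes were read as well. Of the Y-linked genes, Ddx3y was listed at 0 in all 3 libraries, where 3 fragments would have given about 0.0588 FPKM. Eif2s3y was at 0.04, 0.04 and 0 FPKM and Kdm5d at 0.02, 0.03 and 0.06 FPKM. Their X-linked counterparts Ddx3x (128 ± 4.64 FPKM), Eif2s3x (67.2 ± 1.16 FPKM) and Kdm5c (14.9 ± 1.45 FPKM) were well above them. These Y-linked genes are active in most cells of a male mouse, and 3 of 3 measured were below 0.1 FPKM. Uty, Usp9y, Zfy1, Zfy2, Uba1y, Sry and Rbmy, the others of that list, were not analysed here. Xist, the RNA that coats an inactive X chromosome, was at 0.04, 0.04 and 0.03 FPKM. Low levels of Xist and of the measured Y-linked genes were thus seen together in each library, and the reason was not tested.

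The Hox genes, which record position along the body axis, formed a patterned set. Of 36 measured genes, 25 were present, beside 44.3% of all rows. Gene models lower that share, so this count alone does not set the Hox genes apart. Hoxb9 was the highest at 55.2, 56.1 and 55.95 FPKM. Hoxc6 followed at 29.4, 25.4 and 28.2, Hoxb7 at 19.1, 15.03 and 17.3 and Hoxc8 at 14.5, 14.6 and 15.1 FPKM. The libraries of Hoxb7 and Hoxc8 overlap. In the A cluster the highest were Hoxa10 (9.03 ± 1.18 FPKM) and Hoxa9 (7.51 ± 0.91 FPKM), and in the D cluster Hoxd9 (11.4 ± 1.02 FPKM) and Hoxd8 (7.73 ± 2.03 FPKM). The highest members thus lay in paralogue groups 6 to 10 in all 4 clusters. Members of group 13, which mark the posterior end, were at 0.05 in every library for Hoxa13, 1.09 ± 0.338 for Hoxc13 and 0.457 ± 0.00577 FPKM for Hoxd13, while Hoxb13 was present at 3.95, 3.97 and 4.4 FPKM. Hoxc5 differed between libraries, at 2.78, 14.3 and 13.9 FPKM, with replicate 1 low.

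**Figure D5:**
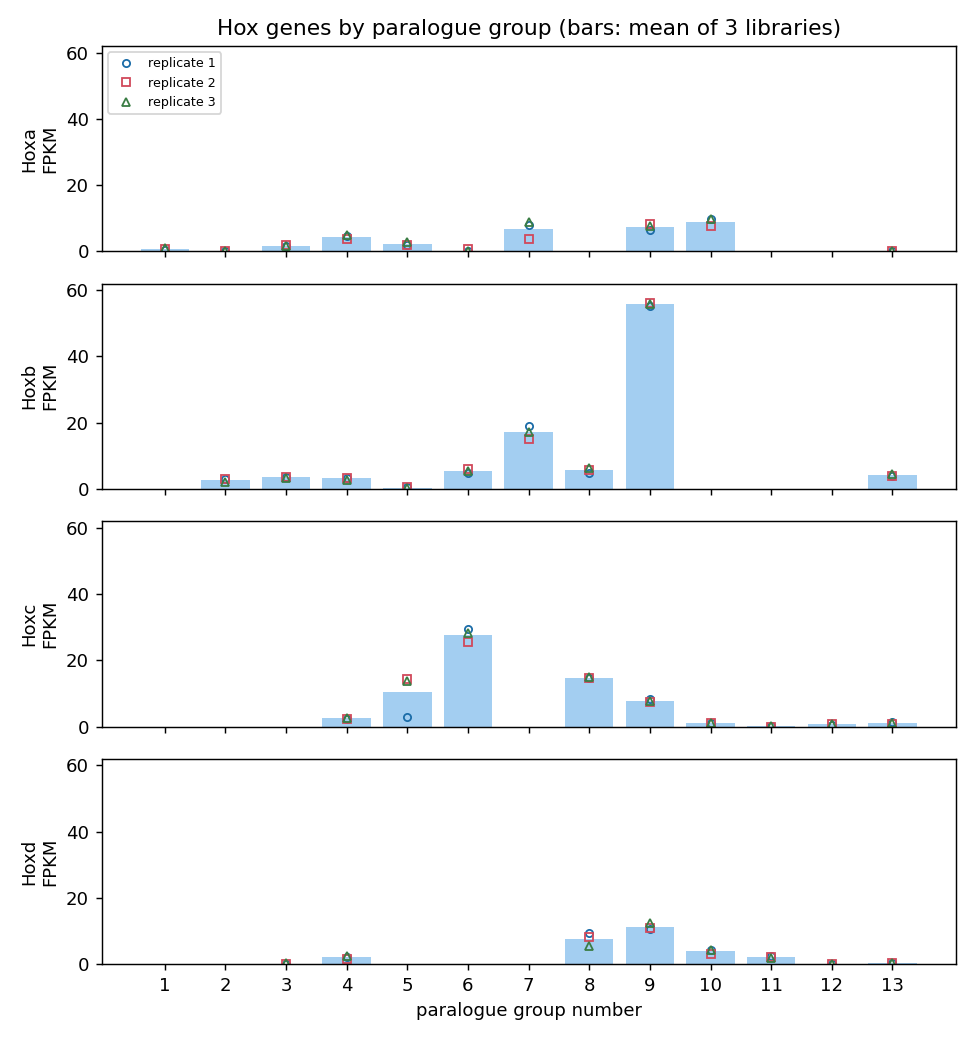
FPKM (vertical, linear axis, 1 scale for all panels) of the measured Hox genes by paralogue group number (horizontal), 1 panel per cluster; bars are means of the 3 DMSO normoxia libraries and symbols the single libraries. Hoxb9 stands above all other bars at 55.7 FPKM, and the panels peak at groups 10, 9, 6 and 9 for the A, B, C and D clusters.

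Among imprinted genes, which are transcribed from the allele of 1 parent, 5 of 16 measured were present, beside 44.3% of all rows. Igf2r was at 27.4 ± 1.05 FPKM, H19 at 8.58 ± 0.764 FPKM, Dlk1 at 4.6 ± 1.25 FPKM and Sgce at 4.33 ± 0.06 FPKM. Gnas was the highest, and its libraries differed, at 240.1, 191 and 144 FPKM. Peg3 (0.01 ± 0 FPKM), Snrpn (0.01 ± 0.0173 FPKM) and Peg10 (listed at 0) were below 1 FPKM.

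Receptors decide which signals the cells can answer. Of 328 receptor genes in 14 lists, 278 were measured, 143 were present, 64 reached 10 FPKM in every library and 121 were below 1 FPKM in every library. The present receptors made up 51.4% of those measured, beside 44.3% of all rows, a share that gene models lower. This count and those of the single lists thus describe the receptors without setting them apart from other genes. The highest were Itgb1, Tnfrsf12a and Lrp1, which belong to adhesion, TNF-type signalling and endocytosis.

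Of 45 receptor tyrosine kinases, 25 were present. Axl, the receptor of Gas6, was the highest at 75.6, 85.7 and 81.3 FPKM. Ryk, which binds Wnt proteins, was at 35.3, 39.2 and 43.7 FPKM, Epha2, a receptor of ephrins, at 36.01, 38.7 and 33.9 FPKM and Fgfr1, of fibroblast growth factors, at 32.7, 33.1 and 33.4 FPKM. Axl stood above all others, while the libraries of Ryk and Epha2 overlap. Ptk7 followed at 22.1 ± 0.489 FPKM, and Pdgfra and Pdgfrb, receptors of platelet-derived growth factors, were at 8.8 ± 3.15 and 3.68 ± 0.636 FPKM.

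Of 12 receptors of the TGF-beta superfamily, 9 were present, led by Eng (32.8 ± 2.16 FPKM), a co-receptor, and Tgfbr2 (27.1 ± 1.41 FPKM), the receptor that binds TGF-beta first. Of 13 genes for Frizzled, LRP and Smo, 10 were present, with Lrp5 at 29.8 ± 1.32, Smo, the transducer of Hedgehog signals, at 24.9 ± 1.47 and Fzd2 at 22.3 ± 1.74 FPKM. All 4 Notch genes were present, and Notch2 (27.6 ± 0.638 FPKM) stood above Notch1 (6.79 ± 0.115 FPKM).

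Integrins hold cells to the matrix as pairs of an alpha and a beta chain. Itgb1, the beta chain of most matrix receptors, was at 203, 192 and 197 FPKM and held 83.2% ± 0.272 of the beta chains. Of 15 alpha chains 5 were present, with Itga5, the fibronectin receptor, at 52.95, 51.3 and 51.4 FPKM, Itgav at 32.2, 38.9 and 36.5 FPKM and Itga3, which binds laminins, at 32.5, 32.8 and 34.2 FPKM. Itga5 stood above the other alpha chains, and Itgav and Itga3 overlap. Itga6, used to sort spermatogonial stem cells, was at 0.13 ± 0.125 FPKM.

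In the TNF receptor family, 10 of 24 were present. Tnfrsf12a, the receptor of TWEAK, was at 183, 186 and 180.2 FPKM, Tnfrsf1a, the main TNF receptor, at 78.3, 75.8 and 77.5 FPKM and Ltbr, the lymphotoxin beta receptor, at 65.8, 73.9 and 69.6 FPKM. Of 29 cytokine receptors 18 were present, including both chains of the type I interferon receptor, Ifnar1 (19.3 ± 0.576 FPKM) and Ifnar2 (17.4 ± 0.416 FPKM), and Ifngr1 (28.1 ± 0.927 FPKM). Of 8 Toll-like receptors, Tlr2 (11.4 ± 0.792 FPKM), Tlr4 (4.24 ± 0.125 FPKM) and Tlr3 (3.52 ± 0.821 FPKM) were present.

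Of 38 nuclear receptors, 23 were present. The first ones, Nr5a1, Vdr (24.5 ± 0.752 FPKM), the vitamin D receptor, and Thra (22.5 ± 1.89 FPKM), a thyroid hormone receptor, followed each other without a gap between their libraries. Among receptors that are known for roles in the gonad, 5 of 12 were present. Rarg, a retinoic acid receptor, was the highest at 19.96, 18.9 and 16.8 FPKM. Rara, another one, followed at 6.22, 4.86 and 6.86 FPKM, and its libraries overlap those of Gfra1 given above. Esr1, the estrogen receptor, was at 2.38, 2.36 and 2.19 FPKM, and Fshr, the receptor of follicle-stimulating hormone, at 0, 0 and 0.03 FPKM.

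Receptors coupled to G proteins were split by ligand type. Of 41 amine and peptide receptors or their partners, 11 were present, none above Ramp3 at 7.56 ± 0.63 FPKM on average. Of 19 lipid and protease receptors 7 were present, led by F2r (PAR1), the thrombin receptor, at 63.2, 61.8 and 61.6 FPKM, and Lpar1, a receptor of lysophosphatidic acid, at 13.7 ± 0.879 FPKM. In the list of endocytic, scavenger and guidance receptors, 13 of 17 were present, with Lrp1 at 129.7, 137 and 131 FPKM, Plxnb2 at 84.7 ± 3.3 FPKM, the mannose 6-phosphate receptor M6pr at 61.2 ± 1.99 FPKM and Cd44, the hyaluronan receptor, at 51.3 ± 2.98 FPKM. Tfrc, which takes up transferrin iron, was at 34.5 ± 0.315 FPKM.

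The spread between the libraries sets which of these levels can be ordered. Over 11727 genes with a mean of at least 1 FPKM, the median coefficient of variation was 7.24%. Over 5939 genes with a mean of at least 10 FPKM it was 4.64%, and 230 of them exceeded 20%. The 10 genes with the largest coefficient at that level were Gm37746, Gm43587, Gm45665, Gm14539, Gm28872, Gm49832, Gm28900, Bc1, Gm49739 and Gm14567. Of the 10, 9 had a value above 0 in a single library, such as Gm28900 at 0, 499.84 and 0 FPKM and Bc1, a short noncoding RNA known from neurons, at 107.58, 0 and 0 FPKM. The 9 of these 10 genes with an annotated length have transcripts of 156 to 210 nt, below the offset of 285 to 295 nt, so their values have the same weakness as that of mt-Atp8. Past the first 10, Atf7ip, a longer gene, was listed at 30.62, 110.43 and 0 FPKM and was singled out after its values were seen.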

How the data were processed

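RNA of GC-2 cells was sequenced as read pairs of 150 nt. The authors deposited FPKM per gene symbol, rounded to 2 decimals, and the submitters' processing notes name fastp, STAR, RSEM 1.3.3 and the build mm39, without their order. The annotation, strandedness and filters were not given in the sources used here. Every row was above 0 in at least 1 of the 12 libraries.

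FPKM as deposited was used for the 3 DMSO normoxia libraries. No test was run, because no groups were compared. Depth was estimated from low values of genes with transcripts of 400 to 1500 nt: 83.1% to 85.6% of them lay within 0.15 of a whole multiple of 1 fragment. A floor of 3 fragments uses the median annotated transcript length and covers counting error only. GENCODE M21, on an earlier build, gave lengths for 96.0% of symbols, overlaps and transcript sequences by symbol, with no positions used. Copies were found with BLAST. The leader rule and the depth fit were tested on simulated data.

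The members and lists were chosen with earlier results of these data known. Named were the 30 highest genes, the first members of each family, up to 5 receptors per list, up to 6 present markers and the defining ones, both members of pairs and the 10 most variable genes. Sequence similarity was examined after the values were seen. Python 3.11.15 and pandas 2.3.3 were used. A few genes are not reported here.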

Additional observations from a re-analysis of the deposited data

How the results depend on the processing

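Of 80 recomputed values, 64 stayed within 1.5 times the reported count or 1 SD of the reported value. With a threshold of 75% in place of 50%, 27 families had a member of that share, against 61. At 0.5 FPKM in place of 1, 4 testis counterparts were present, against 2. The share of the 100 highest genes was 31.9% without mitochondrially encoded genes and 26.9% as an estimated share of fragments. As a share of fragments, mitochondrially encoded genes held 6.85%, ribosomal proteins 6.84%, glycolysis 1.59%, the actin cytoskeleton 1.44%, elongation factors 0.750%, ferritin and metallothionein 0.524%, chaperones 1.37% and gene models named Gm, -ps or Rik 7.08% (11.98% of FPKM). These 9 shares of fragments are estimates from FPKM times the median annotated length, without the offset, and weight long transcripts more by construction. The median coefficient of variation was 4.64% for genes of at least 10 FPKM and 5.72% to 5.94% when 1 library was left out, where it rests on 2 libraries. On the log2(FPKM + 1) scale the median SD was 0.0912. The counts of families, pairs, germ cell markers and receptors stayed within 1.5 times the reported count under every setting run but those named. No paired analysis was possible because no groups were compared and no test was made.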

Other observations

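Secreted and nuclear gene groups were read from lists written after the values had been seen, as a description. Their counts of present genes stand beside 44.3% of all rows. Matrix and secreted proteins were among the abundant transcripts. Mmp2, a gelatinase, was at 653 ± 5.88 FPKM, its inhibitor Timp2 at 201 ± 20.98 FPKM, and Serpinh1, the chaperone of collagen, at 379 ± 21.3 FPKM. Bgn (biglycan) was at 522 ± 12.9 FPKM and Fbln2 at 285 ± 19.3 FPKM. Of 24 measured chemokine and cytokine genes 15 were present, with Mif at 1714 ± 62.97, Spp1 (osteopontin) at 509.6 ± 22.99, Cxcl12 at 199 ± 2.99, Ccl7 at 106 ± 5.89, Cxcl10 at 95.3 ± 6.11 and Ccl2 at 87.1 ± 5.55 FPKM. Ligands of receptors named above were present too: Gas6, the ligand of Axl, at 49.7 ± 1.5 FPKM and Csf1 at 49.8 ± 1.25 FPKM, while Csf1r, the receptor of Csf1, was at 0.0933 ± 0.095 FPKM. Sfrp2, a secreted inhibitor of Wnt, was at 102 ± 2.67 FPKM and Wnt5a at 11.6 ± 0.991 FPKM.

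All 17 measured genes of MHC class I and antigen processing were present, including H2-K1 at 538 ± 19.8, H2-D1 at 266 ± 20.7, Tapbp at 261 ± 12.8 and Psmb8 at 110.4 ± 16.2 FPKM. Of 25 long noncoding RNAs 16 were present, with Snhg8 at 207 ± 13.6, Malat1 at 193 ± 20.5, Snhg3 at 138 ± 3.4 and Neat1 at 101 ± 10.9 FPKM. Of 23 AP-1, EGR and KLF factors and related genes 20 were present, led by Atf4 at 184 ± 1.31 and Junb at 170.3 ± 4.43 FPKM.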
